A study of Mus musculus with 6 samples.

Results

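The genes described here repair DNA damage or carry out meiotic recombination, the exchange of DNA between paired chromosomes that every oocyte completes before birth. The set holds 31 genes, given by symbol and matched to Ensembl identifiers in a count table of 55487 genes, and each of the 31 matched exactly 1 identifier. They were measured by total RNA sequencing of whole mouse ovaries at postnatal day 49, in 3 wildtype and 3 GalTKO libraries. GalTKO mice (genotype GalT-/-) lack Galt, the galactose-1-phosphate uridylyltransferase whose loss causes classic galactosemia, a disorder in which many women lose ovarian function early. Mice of both genotypes had the background label cbl/6-ola/129 and were fed chow holding 2.5% galactose from weaning on, over 4 weeks. The label does not say whether the groups match in strain origin at each locus, and such differences cannot be told apart from the genotype here. The labels do not say whether a library is 1 animal or a pool, nor give litter or estrous stage, and p-values therefore reflect only library-to-library spread, which may be technical.

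Cells meet broken DNA with sensors (the MRE11-RAD50-NBS1 complex and the kinase ATM), with checkpoint kinases that pause division, and with repair by homologous recombination or by direct end joining. Oocytes make programmed breaks during fetal prophase, repair them with meiosis-specific proteins built on the chromosome axis and the synaptonemal complex, and then rest in the follicle reserve, where the repair genes used by all cells remain in service. Human variants in several of these genes, among them MCM8, MCM9, MSH4, MSH5 and STAG3, are known causes of early ovarian failure. Of the 31 genes, 20 act in most dividing cells (general repair genes) and 11 act mainly in meiosis (meiosis-specific genes).

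Promoter sequences are shown for the ends of the range of expression among these genes, Msh6 and Xrcc5 with high levels and Hormad2 and Hormad1 with the lowest. Each run is the 250 bases before the RefSeq transcription start on GRCm38.p6, 5′ to 3′ on the gene's strand, with capitals for 3 motifs searched on both strands: the E2F core TTCCCGC, the E-box CACGTG and the CCAAT box. Parp1, the gene with the highest level, is not shown because its RefSeq start did not open a GENCODE transcript. The positions are chr17:87974800-87975049 (plus strand) for Msh6, chr1:72307171-72307420 (plus) for Xrcc5, chr11:4441083-4441332 (minus) for Hormad2 and chr3:95559427-95559676 (plus) for Hormad1.
Msh6: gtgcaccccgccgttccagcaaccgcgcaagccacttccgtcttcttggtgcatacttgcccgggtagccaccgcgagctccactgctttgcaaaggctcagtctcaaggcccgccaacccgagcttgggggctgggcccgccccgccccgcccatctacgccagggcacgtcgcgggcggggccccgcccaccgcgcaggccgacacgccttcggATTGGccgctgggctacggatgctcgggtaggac
Xrcc5: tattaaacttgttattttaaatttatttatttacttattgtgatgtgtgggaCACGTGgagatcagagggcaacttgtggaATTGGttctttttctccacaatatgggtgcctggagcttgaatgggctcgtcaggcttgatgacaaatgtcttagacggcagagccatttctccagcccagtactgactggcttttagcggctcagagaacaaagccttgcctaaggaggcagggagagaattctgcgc
Hormad2: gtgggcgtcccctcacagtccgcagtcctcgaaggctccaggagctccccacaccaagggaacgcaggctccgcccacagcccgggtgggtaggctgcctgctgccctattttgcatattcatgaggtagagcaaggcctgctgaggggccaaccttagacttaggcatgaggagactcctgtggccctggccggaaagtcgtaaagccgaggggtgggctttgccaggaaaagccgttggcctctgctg
Hormad1: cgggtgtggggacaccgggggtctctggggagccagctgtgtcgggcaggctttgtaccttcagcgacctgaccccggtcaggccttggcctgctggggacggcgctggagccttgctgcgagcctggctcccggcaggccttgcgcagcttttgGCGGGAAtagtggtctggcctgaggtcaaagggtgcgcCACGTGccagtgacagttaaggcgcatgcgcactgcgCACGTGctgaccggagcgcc

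The window of Hormad1, which had no count in wildtype ovaries, held an E2F core and 2 E-box copies, and the window of Hormad2 held none of the 3 motifs. The promoter table used here held a start for 27 of the 31 genes. Over them, the E2F core was found in 3 of 16 general and 4 of 11 meiosis-specific windows, against 3.82% of all 32851 listed starts. An E-box was found in 3 of 16 and 4 of 11 windows, against 6.02% of all starts. The CCAAT box was found in 10 of 16 general and 4 of 11 meiosis-specific windows, against 33.8%. CG dinucleotides numbered 5 to 29 per window in general genes (median 18) and 4 to 26 in meiosis-specific genes (median 12), and the median over all starts was 6. These matches describe letters in a window and were not tested against expression.

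With the classes drawn here, levels separated the general from the meiosis-specific genes completely. Expressed as CPM (a library's counts scaled to a common total) per kb of merged exon, so that genes of different length can be compared, the means of the 20 general genes in wildtype ovaries ran from 0.798 to 29.9 with a median of 3.46, and those of the 11 meiosis-specific genes from 0 to 0.355 with a median of 0.145. GalTKO ovaries gave nearly the same ranges, 0.958 to 30.1 and 0.0459 to 0.399. Mlh3, counted as general though it acts in crossover formation, stood at 3.53 CPM per kb in wildtype ovaries. Counted as meiosis-specific it would break the separation. Parp1, the enzyme that marks single-strand breaks with poly(ADP-ribose), stood highest at 29.9 ± 1.83 CPM per kb (SD, n = 3 wildtype libraries). The mismatch-recognition gene Msh6 followed at 16.9 ± 0.653, the Ku80 gene Xrcc5 at 15.6 ± 0.558, and the MRE11 complex genes Rad50 and Nbn at 11.8 ± 1.10 and 10.1 ± 0.820 CPM per kb. Fanca, a subunit of the Fanconi anaemia core complex, had the lowest level among general genes (0.798 ± 0.160), still above Smc1b, the meiotic cohesin subunit with the highest level among meiosis-specific genes (0.355 ± 0.0175). In 18 of the 30 neighbouring pairs along this order the wildtype ranges overlapped, so their order is not resolved. Hormad1, a protein of the unsynapsed chromosome axis, stood last with no count in any wildtype library. Dividing by the longest coding transcript in place of merged exons moved 3 genes by more than 3 ranks, by at most 9. The largest move was that of Atr, from rank 17 to rank 8, because its merged exons span 23629 bases.

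**Figure D1:**
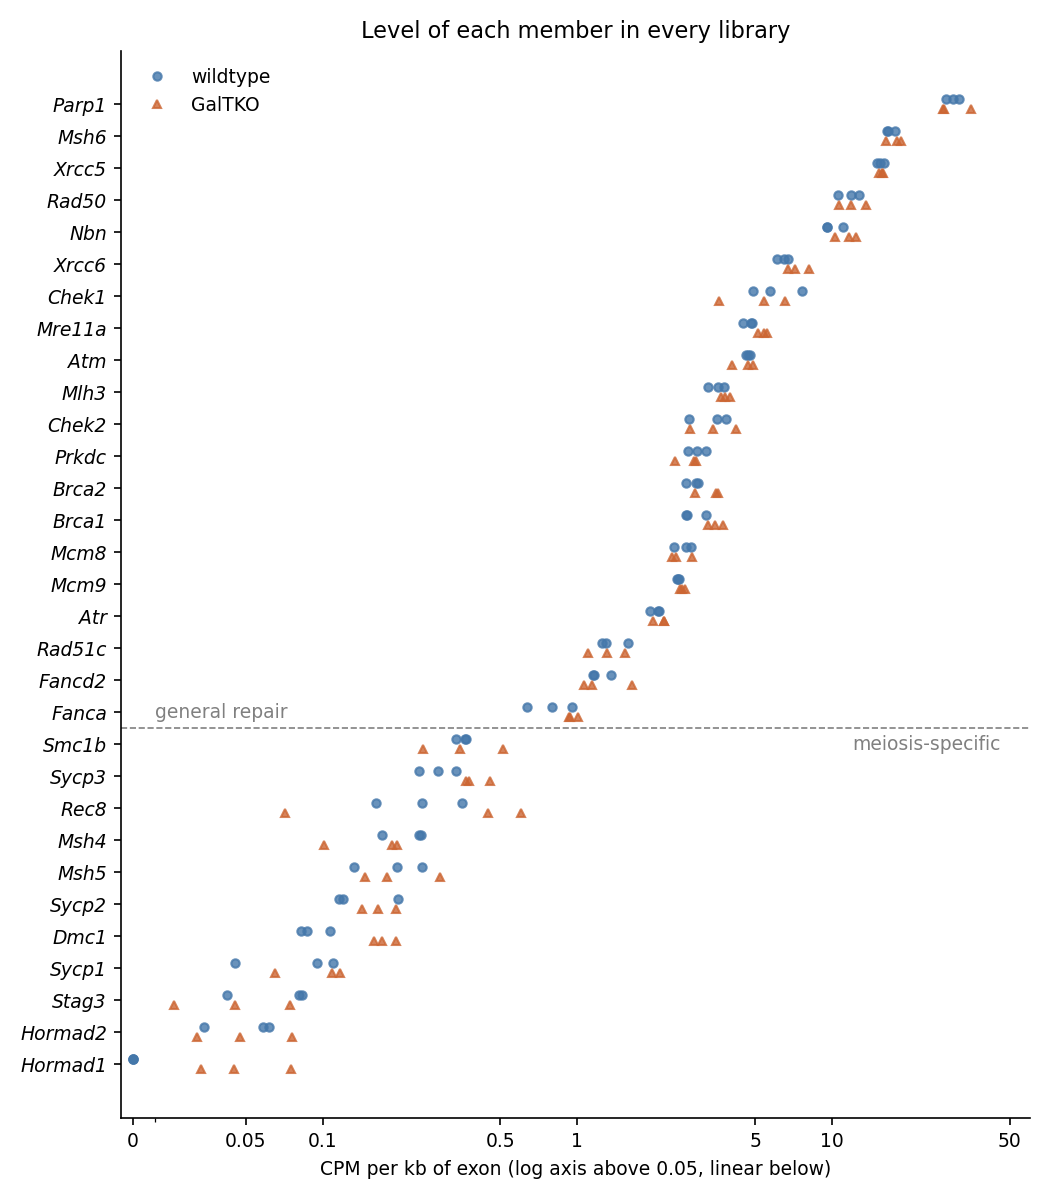
Level of each of the 31 genes in CPM per kb of exon (horizontal axis, logarithmic above 0.05 and linear below), with 1 blue circle per wildtype library and 1 orange triangle per GalTKO library. Genes are ordered by wildtype mean, and all 20 general repair genes (top, down to Fanca at 0.798) stand above all 11 meiosis-specific genes (from Smc1b at 0.355 downward).

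The comparison of genotypes asked whether ovaries without GALT hold other levels of these genes under the galactose diet. None of them passed. Of the 31 genes 27 had enough counts to be tested, all 20 general and 7 of 11 meiosis-specific ones, and 0 of 27 reached an adjusted p under 0.05 (edgeR quasi-likelihood test, Benjamini-Hochberg adjusted over 16957 genes), while 2.55% of all tested genes did. The lowest adjusted p was 0.232, for Brca1. At an unadjusted p under 0.05 there was 1 gene of 27 (3.70%), against 17.1% of all tested genes. DESeq2 called 0 of 27, against 6.19% of genes. The groups did not overlap for 4 of 27 tested genes (14.8%), namely Mre11a, Brca1, Mcm9 and Sycp3, against 23.7% of all tested genes. The median log2 fold change of the 27 was 0.07, beside 0.02 over all genes. Since whole ovaries were sequenced, fewer cells of a type and less RNA per cell cannot be told apart.

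The intervals bound the size of the differences, which is not the smallest difference that the adjusted test could call. General repair genes held 93 to 4308 counts per library, and the 95% interval of the fold change lay inside 1.5-fold in either direction for 18 of 20 and inside 2-fold for all 20. The exceptions at 1.5-fold were Chek1 (0.577 to 1.26) and Fanca (0.903 to 1.595). Meiosis-specific genes held 0 to 48 counts per library. Of the 7 tested the interval lay inside 1.5-fold for 0 and inside 2-fold for 3, so at this depth and spread the intervals also hold moderate differences.

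**Figure D2:**
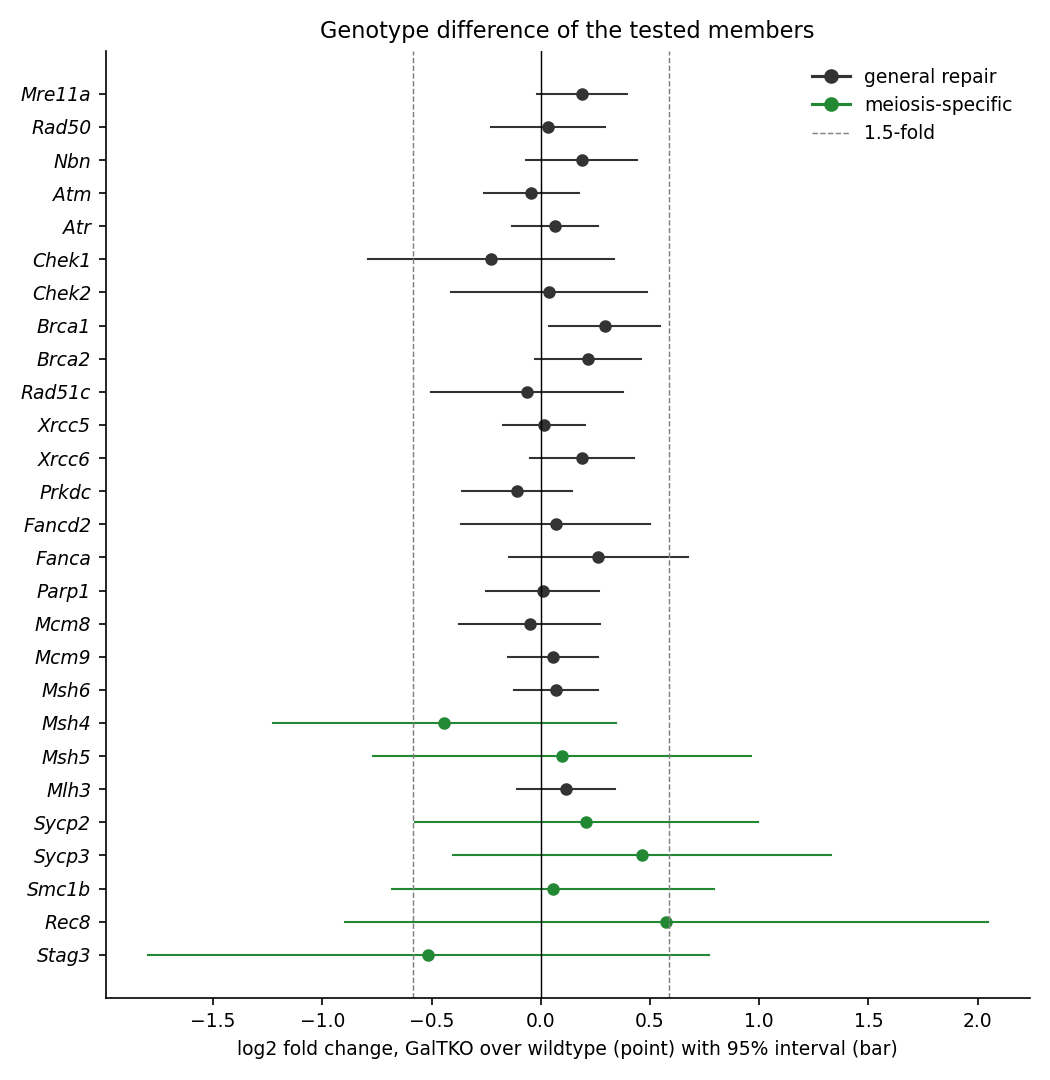
Log2 fold change of GalTKO over wildtype (points) with its 95% interval from the edgeR fit (bars) for the 27 tested genes, general repair genes in black and meiosis-specific genes in green. Dashed lines mark 1.5-fold: all black bars but those of Chek1 and Fanca stay between them, while each green bar crosses at least 1 of them.

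Among the break sensors, Mre11a, the nuclease of the MRE11 complex (ENSMUSG00000031928; GRCm38 chromosome 9, 14784654 to 14837123), was at 28.7, 28.6 and 26.6 CPM in wildtype replicates 1 to 3 and at 32.1, 30.5 and 32.95 CPM in GalTKO replicates 1 to 3. All 3 GalTKO values lay above all wildtype values, by little, with a log2 fold change of 0.19 ± 0.09 (SE, n = 3 a group; adjusted p = 0.336 in edgeR). Its partner Nbn, which recruits ATM to breaks, stood at 25.6 ± 2.08 and 29.1 ± 2.71 CPM (SD, n = 3) in wildtype and GalTKO ovaries, and the groups overlapped. Nbn lies on chromosome 4, as Galt does, 25.8 Mb away. Rad50, the ATPase that bridges the ends, stood at 63.2 ± 5.89 and 64.8 ± 7.92 CPM. Atm, the kinase that starts the response, was among the steadiest genes in wildtype ovaries at 48.6 ± 0.835 CPM, and stood at 47.2 ± 4.52 CPM in GalTKO ovaries, a fold of 0.970 with a 95% interval of 0.835 to 1.13.

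No checkpoint kinase passed the test. Atr, which answers stalled replication, stood at 48.1 ± 2.07 CPM in wildtype against 50.3 ± 2.76 CPM in GalTKO ovaries (SD, n = 3). Chek1, the kinase downstream of ATR (ENSMUSG00000032113; chromosome 9, 36708482 to 36727065), was at 22.8, 26.4 and 35.3 CPM in wildtype and at 25.1, 16.8 and 30.3 CPM in GalTKO replicates 1 to 3. GalTKO replicate 2 was the lowest of the 6, the groups overlapped, and the spread within each group (coefficient of variation 22.8% and 28.3%) was the widest among general repair genes in both. Its log2 fold change was -0.23 ± 0.24 (SE; edgeR adjusted p = 0.687), and with a library left out it ran from -0.43 to -0.03. Chek2, the kinase that eliminates oocytes with unrepaired breaks, stood at 10.2 ± 1.70 and 10.4 ± 2.17 CPM, a fold of 1.02 with an interval of 0.751 to 1.40.

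Brca1 had the smallest p of the set. This ubiquitin ligase subunit directs breaks toward homologous recombination (ENSMUSG00000017146; chromosome 11, 101488764 to 101551955). It was at 27.4, 23.0 and 22.8 CPM in wildtype and at 29.8, 31.96 and 27.9 CPM in GalTKO replicates 1 to 3. The groups did not overlap, but the highest wildtype and the lowest GalTKO library nearly met. The log2 fold change of 0.29 ± 0.11 (SE, n = 3 a group) did not pass (unadjusted p = 0.0286, edgeR adjusted p = 0.232), and the adjusted p was at least 0.202 under the alternatives tried. Brca2, which acts in homologous recombination, was at 40.6, 40.1 and 36.7 CPM in wildtype and at 39.8, 48.8 and 47.8 CPM in GalTKO libraries. GalTKO replicate 1 fell among the wildtype values, and the log2 fold change was 0.21 ± 0.11 (edgeR adjusted p = 0.354). Rad51c, also of homologous recombination, stood at 6.06 ± 0.787 and 5.78 ± 0.967 CPM.

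No end joining gene passed the test. Xrcc5 and Xrcc6 encode Ku80 and Ku70, which cap broken ends, and Prkdc encodes the kinase they recruit. Xrcc5 stood at 39.7 ± 1.43 CPM in wildtype against 40.1 ± 0.861 CPM in GalTKO ovaries (SD, n = 3), a fold of 1.01 with an interval of 0.887 to 1.15. Xrcc6 stood at 28.9 ± 1.46 and 32.9 ± 3.22 CPM, a fold of 1.14 (0.965 to 1.34). Prkdc stood at 39.1 ± 3.25 and 36.3 ± 3.64 CPM, a fold of 0.927 (0.778 to 1.11).

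None of the genes of crosslink and single-strand break repair passed. Fancd2, the effector that the Fanconi core complex ubiquitinates, stood at 9.71 ± 0.910 CPM in wildtype against 10.2 ± 2.45 CPM in GalTKO ovaries. Fanca was at 8.40, 6.98 and 5.59 CPM in wildtype and at 8.21, 8.80 and 8.17 CPM in GalTKO libraries, so that wildtype replicate 1 fell inside the GalTKO range and the log2 fold change was 0.26 ± 0.18 (edgeR adjusted p = 0.510). Parp1 was at 168, 158 and 148 CPM in wildtype and at 145, 186 and 147 CPM in GalTKO replicates 1 to 3. GalTKO replicate 2 stood above all other libraries and the other GalTKO libraries below all wildtype ones, so that the means (158 and 159 CPM) nearly coincide. The MCM8-MCM9 helicase unwinds DNA during recombination repair in the germ line: Mcm8 stood at 9.79 ± 0.750 and 9.45 ± 0.911 CPM, and Mcm9 at 22.7 ± 0.121 and 23.6 ± 0.598 CPM. The groups of Mcm9 did not overlap, yet its fold was 1.04 (0.902 to 1.20). Xrcc6, Mcm9 and Fanca overlap Desi1, Asf1a and Zfp276 on the other strand, genes at 46.0, 29.6 and 16.5 CPM, so reads of the pairs may not have been told apart. The same limit holds for Mre11a, which shares 203 bases with Ankrd49 (20.5 CPM), and Msh6, which shares 34 bases with Fbxo11 (129 CPM).

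Among the mismatch repair and crossover genes, Msh6 and Mlh3 stood well above Msh4 and Msh5. Msh6, which recognises mispaired bases, stood at 73.5 ± 2.84 CPM in wildtype against 77.2 ± 5.46 CPM in GalTKO ovaries, and Mlh3, which acts in crossover formation, at 26.7 ± 1.93 and 28.9 ± 1.18 CPM (SD, n = 3). Msh4 and Msh5 encode the clamp that stabilises recombination intermediates in meiosis. Msh4 was at 1.68, 1.18 and 1.65 CPM in wildtype and at 0.697, 1.29 and 1.35 CPM in GalTKO libraries, with GalTKO replicate 1 the lowest and a log2 fold change of -0.44 ± 0.34 (edgeR adjusted p = 0.569). Msh5 stood at 1.06 ± 0.309 and 1.13 ± 0.411 CPM.

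The remaining meiosis-specific genes were rare in these ovaries. Rec8, the cohesin subunit cleaved at the meiotic divisions (ENSMUSG00000002324; chromosome 14, 55618037 to 55625395), was the most uneven: 1.04, 0.719 and 0.476 CPM in wildtype and 1.32, 1.77 and 0.208 CPM in GalTKO replicates 1 to 3, or 41 counts in GalTKO replicate 2 and 4 in replicate 3. The log2 fold change of 0.58 ± 0.64 (SE; edgeR adjusted p = 0.703) became 0.09 without GalTKO replicate 2 and 1.04 without GalTKO replicate 3. Stag3, its partner subunit, had totals of 28 wildtype and 19 GalTKO counts, and Smc1b stood at 1.44 ± 0.0709 and 1.49 ± 0.538 CPM. Sycp2 and Sycp3 form the lateral element of the synaptonemal complex. Sycp3 was at 0.360, 0.423 and 0.303 CPM in wildtype and at 0.464, 0.474 and 0.573 CPM in GalTKO libraries, groups that do not overlap on 7 to 12 counts per library, with a log2 fold change of 0.46 ± 0.38 (edgeR adjusted p = 0.592). Its whole body lies opposite Chpt1 on the other strand, a gene at 77.2 CPM, and whether the counting used strand is not given in these sources. Sycp2 stood at 0.866 ± 0.276 and 1.002 ± 0.157 CPM.

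Dmc1, Sycp1, Hormad1 and Hormad2 had too few counts to pass the filter. Dmc1, the meiotic recombinase (ENSMUSG00000022429; chromosome 15, 79561497 to 79605109), was at 0.200, 0.211 and 0.260 CPM in wildtype and at 0.387, 0.474 and 0.416 CPM in GalTKO replicates 1 to 3, without overlap between the groups. These levels rest on totals of 16 and 29 counts, or 1.91 times the wildtype level (exact 95% interval 1.0 to 3.76, from counting error alone), and with no filter on low counts its adjusted p in edgeR was 0.630. Hormad1 had 0 counts in wildtype and 2, 3 and 1 in GalTKO replicates 1 to 3, a ratio whose exact lower 95% limit from counting alone is 1.24 (no-filter edgeR adjusted p = 0.378). Sycp1, the transverse filament of the synaptonemal complex, had totals of 21 wildtype and 23 GalTKO counts, and Hormad2 10 and 9.

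**Figure D3:**
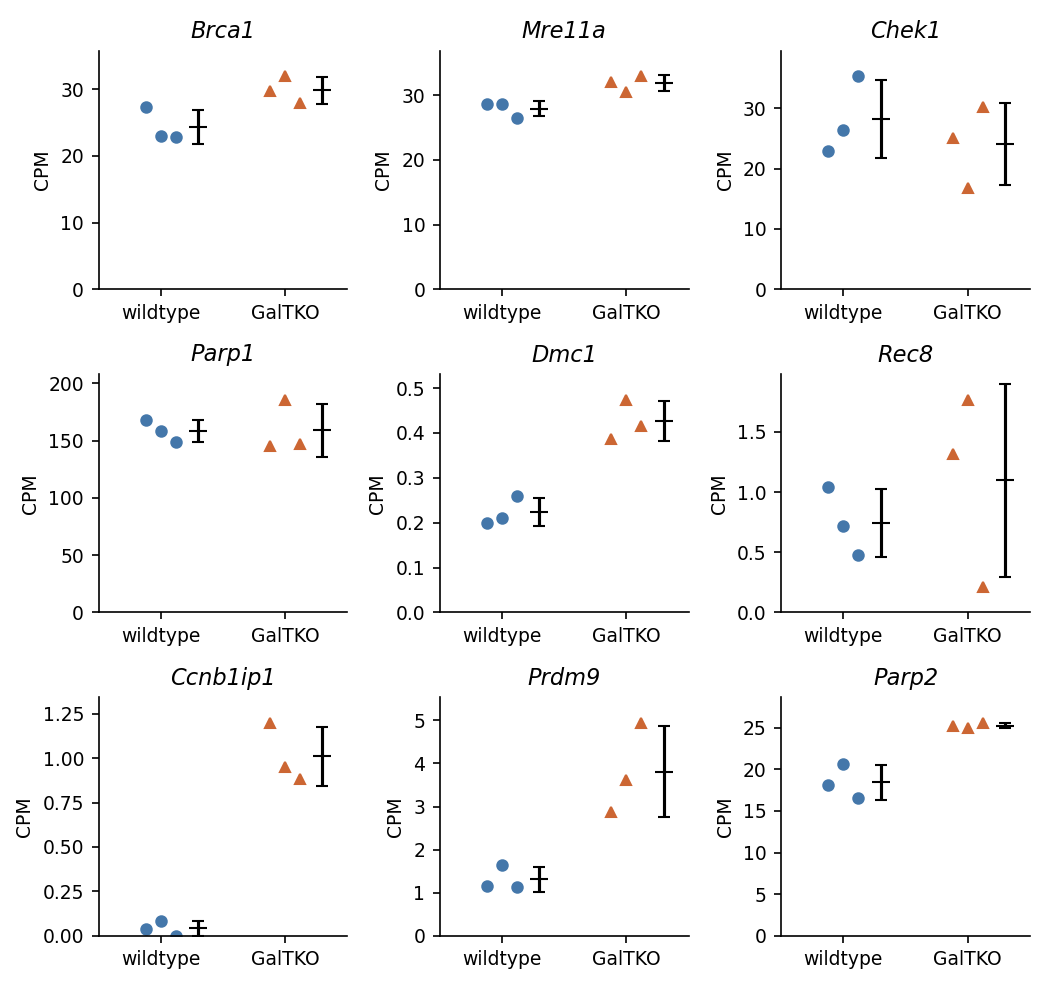
CPM in each library for 9 genes, on linear axes from 0 (wildtype circles, GalTKO triangles, replicates 1 to 3 from left to right; bars show mean ± SD). Brca1, Mre11a and Dmc1 do not overlap between groups but did not pass the test or could not be tested, Chek1, Parp1 and Rec8 overlap, and Ccnb1ip1, Prdm9 and Parp2 are from the wider lists described further on.

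GalTKO replicate 2 had the highest summed level of the set. The summed CPM of the 20 general genes was 756, 734 and 720 in wildtype and 727, 814 and 754 in GalTKO replicates 1 to 3, and that of the 11 meiosis-specific genes was 7.12, 7.40 and 6.54 in wildtype and 6.35, 9.75 and 6.72 in GalTKO replicates. Parp1 makes up 19.5% to 22.8% of the general sum, and without it that sum was 588, 575 and 572 CPM in wildtype and 582, 628 and 607 CPM in GalTKO replicates, so that GalTKO replicate 3 also lay above every wildtype library. Of the 27 tested genes 20 had a positive log2 fold change, against 53.4% of all tested genes, but the number moved with single libraries. It was 14 of 27 without GalTKO replicate 2 and in limma voom (medians 0.03 and 0.01), 16 of 27 without wildtype replicate 3 (0.05), and 21 of 27 without GalTKO replicate 1 (0.115). GalTKO replicate 2 also had the highest sum of 26 proliferation markers, 1783 CPM against 1559 and 1579 in the other GalTKO and 1449 to 1685 in wildtype libraries, with 0 of 26 passing, 2 at an unadjusted p under 0.05, 21 positive (80.8%) and a median of 0.11. The 12 early oocyte markers summed to 143 to 192 CPM in wildtype and 106 to 165 CPM in GalTKO libraries, but Uchl1 alone makes up 33.6% to 59.8% of that sum. Without Uchl1 the sums were 79.8, 75.0 and 61.8 CPM in wildtype and 85.6, 60.8 and 83.9 CPM in GalTKO replicates, and the groups overlapped. Of these markers 11 were tested, 0 passed in edgeR and 1 in DESeq2, 6 were positive and the median was 0.08. An unadjusted p under 0.05 in edgeR was found for 4, all with lower values in GalTKO ovaries: Ddx4, Dazl, Sohlh1 and Uchl1. Over all tested genes 6.19% passed in DESeq2 and 17.1% had an unadjusted p under 0.05 in edgeR. Ddx4, the germ cell helicase, stood at 5.04, 5.67 and 2.77 CPM in wildtype and 2.79, 1.38 and 2.19 CPM in GalTKO libraries. Its adjusted p in edgeR was 0.166, and 0.0409 with no filter on low counts. The 16 growing oocyte markers summed to 389 to 570 CPM in wildtype and 449 to 518 CPM in GalTKO libraries, with 0 passing in edgeR, 1 in DESeq2 and 3 at an unadjusted p under 0.05. The 10 corpus luteum markers summed to 16330 to 22820 CPM in wildtype and 9820 to 15580 CPM in GalTKO libraries. Cyp11a1 alone held 4436 to 6847 and 2862 to 4294 CPM of these sums. Of the 10 only Star passed in edgeR, lower in GalTKO ovaries, and 4 passed in DESeq2. Log2 fold changes were positive for 2 of the 10, up to 1.37. The 15 macrophage and leukocyte markers summed to 702 to 846 CPM in wildtype and 451 to 512 CPM in GalTKO libraries, with 8 lower. Of 8 endothelial markers 2 were lower and 0 positive, of 14 granulosa cell markers 2 were higher and 1 lower, and of 6 surface epithelium markers 1 was higher and 6 were positive. Over all tested genes 2.55% passed in edgeR, in either direction. Whether the shifts in cell markers have a part in the values of the repair genes was not tested.

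**Figure D4:**
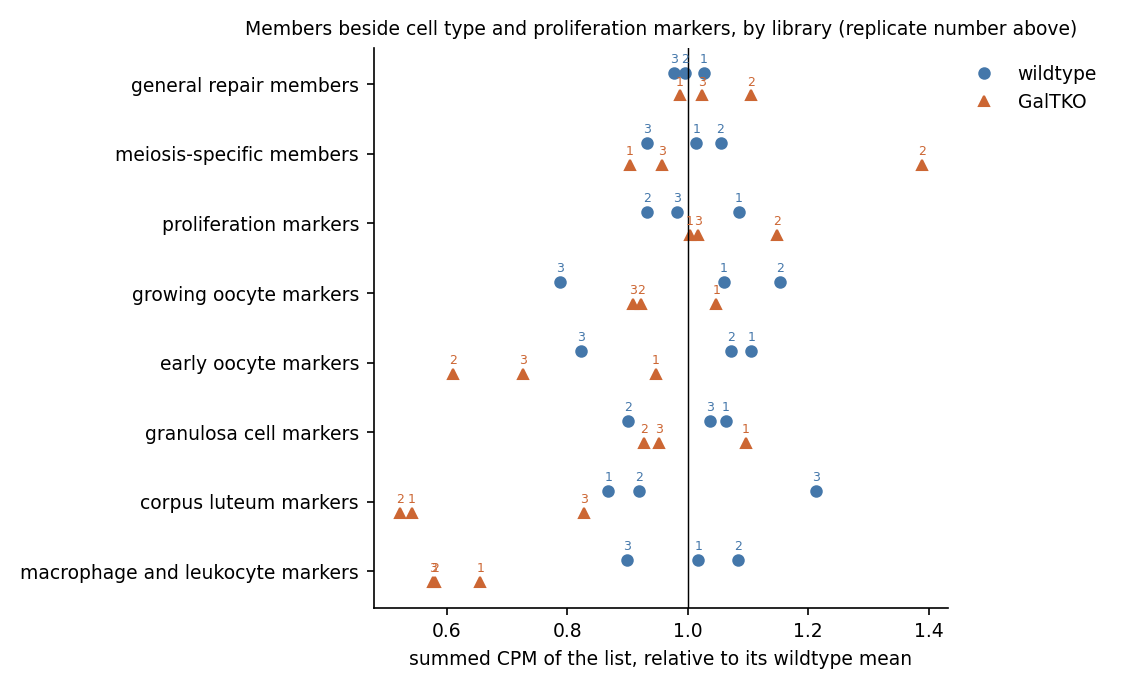
Summed CPM of each gene list in each library, divided by the list's wildtype mean (horizontal axis), with replicate numbers above the wildtype circles and GalTKO triangles. The general and meiosis-specific repair genes are highest in GalTKO replicate 2 (814 and 9.75 CPM). The early oocyte markers, whose sum Uchl1 weighs on, are lowest there (106 CPM, or 60.8 CPM without Uchl1 against 61.8 in wildtype replicate 3). The sums of luteal and of leukocyte markers are lower in GalTKO libraries, though single markers of each list go the other way.

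Other genes of the same pathways were counted from lists of textbook members, drawn up with earlier results of these data known. Over 125 further repair and checkpoint genes, all of them tested, 0 passed in edgeR, in either direction, 1 in DESeq2 (Parp2), and 17 (13.6%) had an unadjusted p under 0.05, a smaller share than the 17.1% over all genes. All 17 had positive log2 fold changes. Log2 fold changes were positive for 95 of 125 (76.0%), with a median of 0.12, beside 0.02 over all genes and 80.8% and 0.11 for the proliferation markers. By list, positive values were found for 28 of 35 homologous recombination genes, 6 of 10 end joining, 8 of 14 Fanconi anaemia, 5 of 5 mismatch repair, 18 of 21 base excision and single-strand break repair, 16 of 20 nucleotide excision repair and 14 of 20 checkpoint genes. Without GalTKO replicate 2, 86 of the 125 were positive, with a median of 0.09.

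The members with the smallest p in these lists differed modestly. Blm, the Bloom helicase that dissolves recombination intermediates, was at 19.99, 19.6 and 19.8 CPM in wildtype and 25.5, 27.6 and 22.9 CPM in GalTKO libraries (0.36 ± 0.10 on the log2 scale, SE; adjusted p = 0.135 in edgeR). The end joining factor gene Nhej1 stood at 0.77 ± 0.24, Xpa of nucleotide excision repair at 0.71 ± 0.21 and the fork protection gene Tipin at 0.40 ± 0.13 (log2, SE), none past the threshold. Xpa lies near Galt on chromosome 4 (46155347 to 46196311, against 41755228 to 41758695 for Galt). Whether this position has a part in the values of Xpa was not tested. Parp2, the PARP1 relative (chromosome 14, 50807841 to 50821301), was at 18.1, 20.7 and 16.6 CPM in wildtype and at 25.2, 25.02 and 25.6 CPM in GalTKO replicates 1 to 3. The 3 GalTKO values are tight and above all wildtype values, and the log2 fold change was 0.45 ± 0.11 (edgeR adjusted p = 0.0834; over the alternatives 0.0240, in DESeq2, to 0.251).

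Targets of p53, the factor activated by unrepaired damage, went in both directions. Of 18 tested 0 passed in edgeR and 2 in DESeq2, 4 had an unadjusted p under 0.05, and 9 were positive. Over all tested genes 6.19% passed in DESeq2 and 17.1% had an unadjusted p under 0.05 in edgeR. Cdkn1a, the cell cycle inhibitor p21, was at 22.8, 19.9 and 24.1 CPM in wildtype and at 100.1, 29.3 and 36.6 CPM in GalTKO replicates 1 to 3. The groups did not overlap, but GalTKO replicate 1 weighed most on the GalTKO mean. The log2 fold change was 1.32 ± 0.49 (edgeR adjusted p = 0.255) and 0.56 without that library. Phlda3 and Plk2 stood at -0.71 ± 0.19 and -0.56 ± 0.16 (adjusted p = 0.111 and 0.130), and both passed in DESeq2 and with no filter on low counts. Of 9 somatic cohesin genes, which hold sister chromatids together, 0 passed in edgeR or DESeq2 and 2 had an unadjusted p under 0.05, Wapl lower and Smc1a higher. Their median was -0.04.

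Ccnb1ip1 and Prdm9 rose in GalTKO ovaries, the only 2 calls among 14 tested of 40 further meiotic prophase genes. Over all tested genes 2.55% were called. The other 26 meiotic prophase genes had from 0 to 61 counts over the 6 libraries. Of these 26, mean CPM was higher in GalTKO ovaries for 11 and lower for 13. Those with the widest gaps in counts, chosen after their values were seen, were lower: Meiob had 36 wildtype and 6 GalTKO counts, and Rec114 30 and 8. Ccnb1ip1 encodes HEI10, a ubiquitin ligase that matures crossovers (ENSMUSG00000071470; chromosome 14, 50789248 to 50807732). It had 1, 2 and 0 counts in wildtype and 31, 22 and 17 counts in GalTKO replicates 1 to 3, 24.5 times the wildtype level (95% interval 8.06 to 122, from counting error alone; edgeR adjusted p = 0.00970). It passed the filter on low counts through the GalTKO libraries only. Without wildtype replicate 1 the adjusted p was 0.0589. Its body overlaps 284 bases of Rpph1, the abundant RNase P RNA gene on the same strand, at 5996 to 7581 CPM in wildtype and 5409 to 6821 CPM in GalTKO libraries. Prdm9, the histone methyltransferase that places recombination hotspots (ENSMUSG00000051977; chromosome 17, 15543079 to 15564354), was at 1.159, 1.65 and 1.13 CPM in wildtype and at 2.86, 3.62 and 4.95 CPM in GalTKO libraries. The log2 fold change was 1.53 ± 0.30 (SE; edgeR adjusted p = 0.0397), and leaving out any wildtype library, or GalTKO replicate 3, ended the call (adjusted p = 0.0859 to 0.145) with log2 fold changes of 1.3 to 1.72.

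**Figure D5:**
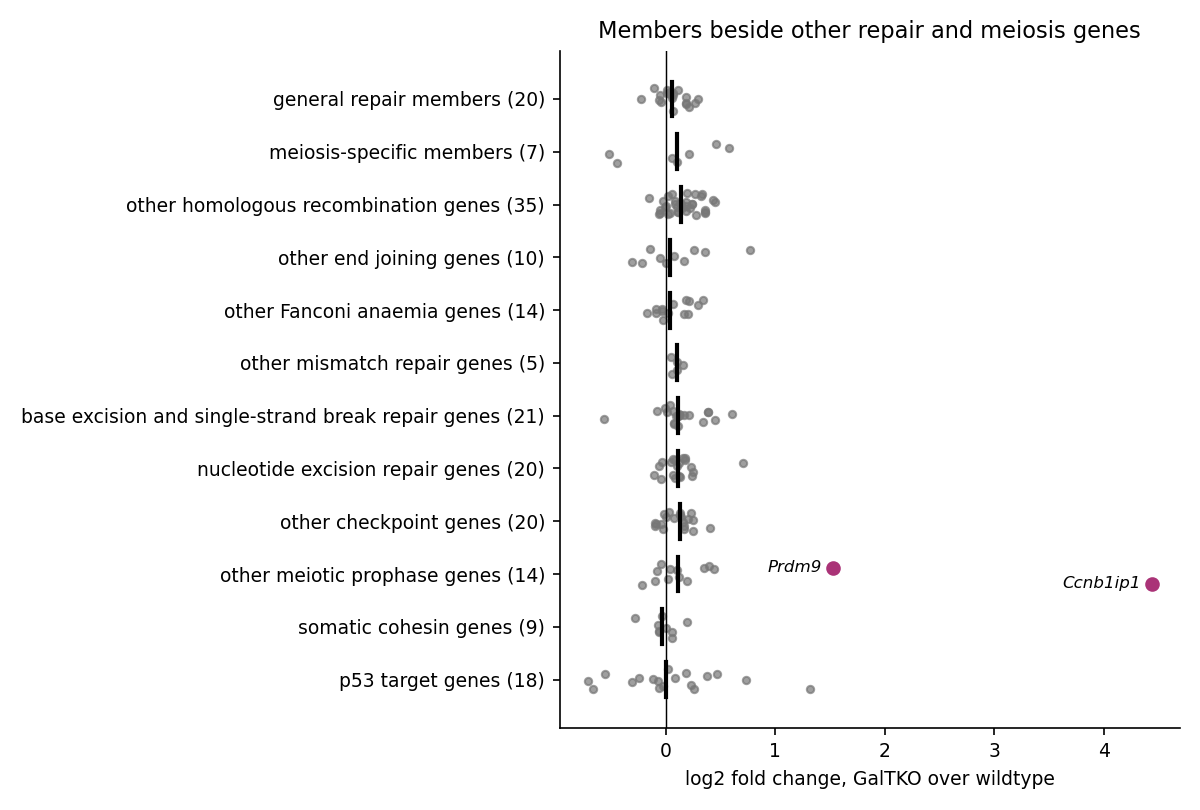
Log2 fold change of GalTKO over wildtype for each tested gene (dots, 1 row per list with its number of tested genes; black bars are list medians). Dots sit within about 1 unit of 0 apart from Cdkn1a at 1.32 among p53 targets and the 2 genes past the threshold (purple), Prdm9 at 1.53 and Ccnb1ip1 at 4.44.

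The libraries themselves held 19232486 to 25729564 counts, and intervals on counts cover counting error only. Galt was at 16.1 to 17.8 CPM in wildtype and 0 to 0.259 CPM in GalTKO libraries, which matches the labelled genotypes. All 16 growing oocyte and all 14 granulosa cell markers of the lists passed the filter on low counts, and Tex101 of the early oocyte markers had no count in any library.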

How the data were processed

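Total RNA of 6 ovary libraries was sequenced after ribosomal RNA removal with strand-specific kits, per the labels' protocols. The authors deposited raw counts per Ensembl gene, not normalized. The submitters' processing notes name build GRCm38 and, with no roles, STAR 2.7.6a, featureCounts 1.6.3, cutadapt 1.16 and DESeq2 1.30.1. Strand setting and treatment of shared reads are not given in the sources at hand, which leaves genes overlapping another gene uncertain (18 of the 31 genes do). Groups were taken from sample titles, and no 2 libraries agreed within sampling noise (chi-square per degree of freedom of at least 12). Names, positions and merged exon lengths came from GENCODE M21 (55227 of 55487 identifiers matched), promoters from RefSeq GRCm38.p6.

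Counts were tested in R 4.3.3 with edgeR 4.0.16: filterByExpr (minimum count 10, total 15; 16957 genes kept), TMM scaling, a robust quasi-likelihood fit with genotype as the only term, two-sided p-values, Benjamini-Hochberg adjustment over all genes tested and a threshold of 0.05. SE is the log2 fold change divided by the square root of F, and 95% intervals use the fit's degrees of freedom. Alternatives were upper-quartile and median-of-ratios scaling, DESeq2 1.42.0, limma 3.58.1 voom, no filter, 1 CPM in 3 libraries, a replicate block, each library left out, and, chosen after seeing the data, protein-coding genes only, another gene length and sums without a list's most abundant gene. The edgeR fit was also run on simulated counts with changes of at least 2-fold, placed only in genes above 1 CPM. That run does not cover rarer genes or smaller differences. The members and lists were chosen with earlier results of these data known. Named are all members, Galt, and of each other list the genes past the threshold, filled up to 4 by smallest p, of which the text gives a part; genes near Ccnb1ip1 were chosen after their values were seen. Figures used Python 3.11.15 and matplotlib 3.10.9.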

Additional observations from a re-analysis of the deposited data

How the results depend on the processing

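In all 14 alternatives 0 of the members passed, with 24 to 31 of them tested. Over all genes 1049 passed in DESeq2, 877 with no filter and 260 among protein-coding genes, and 165 to 742 with a library left out, against 433. Calls in the other repair, cohesin, p53 target and meiotic lists were 2 (Ccnb1ip1 and Prdm9), 5 in DESeq2, 4 with no filter, 1 with the stricter filter or among protein-coding genes, and 0 to 3 with a library left out. Whether replicate numbers pair the libraries is not settled: correlations of same-numbered deviations were 0.0926, -0.0404 and 0.0780. Wildtype replicates 1 and 3 correlated best with their own number and wildtype replicate 2 did not, and correlations this weak cannot decide. With the replicate number as a block 321 genes passed, 0 members and 1 gene of the lists. Prdm9 did not pass there, at 1.51 (edgeR adjusted p = 0.0718). Prdm9 also missed the threshold among protein-coding genes (1.54, adjusted p = 0.0501).

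Signs near 0 were unstable: 9 members changed sign in some setting, none larger than 0.10 in size with all libraries, and the cause was not tested. In limma voom Rad50, Chek2, Fancd2, Parp1, Msh5 and Smc1b stood at -0.055, -0.132, -0.056, -0.069, -0.177 and -0.143, and with no filter Parp1 at -0.0025. With a library left out Rad50 ran from -0.062 to 0.115, Atm from -0.101 to 0.032, Chek2 from -0.131 to 0.175, Rad51c from -0.194 to 0.047, Xrcc5 from -0.012 to 0.040, Fancd2 from -0.148 to 0.189, Parp1 from -0.117 to 0.072, Msh5 from -0.238 to 0.308 and Smc1b from -0.262 to 0.281.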

Other observations

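The rise of Ccnb1ip1 stood beside other differences within 300 kb on chromosome 14. Of 13 tested genes there 4 passed, namely Ccnb1ip1 itself and 3 genes lower in GalTKO ovaries. The window was centred on Ccnb1ip1 because it passed, so its own call was given in advance. Over all tested genes the share was 2.55%. The genes near Ccnb1ip1 were chosen after their values were seen. The antisense RNA gene Gm26782 was at 13.9, 16.2 and 20.4 CPM in wildtype and at 2.40, 2.72 and 3.75 CPM in GalTKO replicates 1 to 3 (-2.52 ± 0.22 on the log2 scale, SE; adjusted p = 0.000859 in edgeR). The angiogenin gene Ang was at 2.56, 3.64 and 2.90 CPM in wildtype and at 0.929, 0.561 and 0.885 CPM in GalTKO libraries (-1.93 ± 0.30; adjusted p = 0.0158). Osgep, a tRNA modification enzyme gene, was at 33.2, 33.6 and 36.5 CPM in wildtype and at 23.0, 23.2 and 24.99 CPM in GalTKO libraries (-0.54 ± 0.09; adjusted p = 0.0258). With a library left out or another setting the adjusted p of Ang and Osgep reached 0.0814 and 0.103, and that of Gm26782 0.00813. Parp2 and Ccnb1ip1 lie on opposite strands with 108 bases between them. Rpph1, on the strand of Ccnb1ip1, reaches into that gap (50807449 to 50807767) and stood at -0.15 ± 0.15 (edgeR adjusted p = 0.668). The base excision gene Apex1 in the same window stood at -0.08 ± 0.09 (edgeR adjusted p = 0.706). Whether position or strain background has a part in these values was not tested. Around Prdm9, 1 of 8 tested genes passed within the same distance, Prdm9 itself.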
